A study of Mus musculus with 49 samples.

Results

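Messenger RNA of blood vessels was described in the hippocampus of 49 mice through 34 genes, 24 of endothelial cells and of the blood-brain barrier and 10 of mural cells. The genes were taken by name from the authors' table of 42521 rows. A row was used when its identifier names a listed gene, and the row with the highest mean was used where a symbol stood on several. The 34 genes fell on 33 rows, because Ly6a and Ly6c1 share one.

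All mice were of the inbred strain C57BLKS/J and 3 months old, and 1 library was made from each hippocampus. The labels give 6 groups by code only: HFD-F (8 libraries), CD-F (8), FD-C (8), FFD-C (8), HFD-C (9) and CD-C (8). From the series title, which concerns a fibre-rich diet and obesity of the mother, the letters before the hyphen were read as the dam's diet and the letter after it as the offspring's. No label spells the codes out or gives a duration of feeding. Titles also carry an XX or XY mark, which entered every model, and 1 of 20 prefixes that may mark litters. The prefixes numbered 3 in HFD-F, 3 in CD-F, 3 in FD-C, 4 in FFD-C, 6 in HFD-C and 4 in CD-C. The main model treats libraries of 1 prefix as independent, and a block for prefix was an alternative. Only HFD-F and HFD-C share prefixes (3). In every other comparison of 2 groups, CD-F against CD-C among them, a difference between groups and a difference between prefixes cannot be told apart. Prefixes were taken as written: 1 of CD-F differs from 1 of CD-C only by a final X, and no label says whether these are related. P-values measure the spread between these libraries.

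Endothelial cells line the vessel lumen, and in the brain their tight junctions and transporters form the blood-brain barrier. Vascular endothelial growth factor acts on them through the receptors Kdr and Flt1, and angiopoietins act through Tek. Mural cells wrap the endothelium: pericytes sit on capillaries and depend on Pdgfrb, whereas smooth muscle cells on arterioles carry contractile proteins such as Acta2 and Myh11.

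Promoters are shown for 5 of the genes that were called over both dam codes given further on, so that the letters can be read beside members that moved together. Each is the 250 bases before to 50 after the start that RefSeq annotates on build GRCm38.p6, given 5′ to 3′ on the gene's strand. Capitals mark matches, on either strand, of the motif named for that gene. Genes and motifs were picked for display after the search, from promoters that hold a match: in an earlier choice the ETS core had 0 matches in Kdr, Notch3 and Vtn. Flt1 (chr5:147725962-147726261, minus strand) and Eng (chr2:32646345-32646644, plus strand) are shown with the ETS core AGGAAG, a motif of the factors that maintain endothelial identity. Kdr (chr5:75978406-75978705, minus strand) and Vtn (chr11:78498870-78499169, plus strand) are shown with TGGGAA, the core bound by the Notch effector RBPJ. Notch3 (chr17:32166841-32167140, minus strand) is shown with the GC box GGGCGG.
Flt1: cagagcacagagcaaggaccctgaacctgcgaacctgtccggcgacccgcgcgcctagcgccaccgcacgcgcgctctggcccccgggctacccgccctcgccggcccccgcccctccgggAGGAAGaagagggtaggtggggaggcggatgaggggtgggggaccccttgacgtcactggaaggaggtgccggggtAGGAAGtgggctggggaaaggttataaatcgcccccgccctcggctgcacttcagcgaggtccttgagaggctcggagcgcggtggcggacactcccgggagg
Eng: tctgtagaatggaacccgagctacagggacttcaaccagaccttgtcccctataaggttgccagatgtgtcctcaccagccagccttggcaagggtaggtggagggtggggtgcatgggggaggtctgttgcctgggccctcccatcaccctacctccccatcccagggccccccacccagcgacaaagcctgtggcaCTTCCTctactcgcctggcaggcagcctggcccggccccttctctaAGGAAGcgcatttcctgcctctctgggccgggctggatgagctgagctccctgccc
Kdr: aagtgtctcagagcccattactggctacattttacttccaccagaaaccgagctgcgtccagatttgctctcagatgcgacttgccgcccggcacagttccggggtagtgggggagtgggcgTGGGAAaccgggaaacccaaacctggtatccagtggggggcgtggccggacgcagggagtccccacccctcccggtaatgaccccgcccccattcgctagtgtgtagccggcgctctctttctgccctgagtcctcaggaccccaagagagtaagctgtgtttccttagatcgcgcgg
Vtn: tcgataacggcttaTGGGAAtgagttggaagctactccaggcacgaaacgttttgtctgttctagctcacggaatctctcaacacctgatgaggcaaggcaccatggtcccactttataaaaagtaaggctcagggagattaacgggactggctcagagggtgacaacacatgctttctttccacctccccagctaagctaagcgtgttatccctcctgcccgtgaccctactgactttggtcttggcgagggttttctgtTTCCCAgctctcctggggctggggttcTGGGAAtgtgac
Notch3: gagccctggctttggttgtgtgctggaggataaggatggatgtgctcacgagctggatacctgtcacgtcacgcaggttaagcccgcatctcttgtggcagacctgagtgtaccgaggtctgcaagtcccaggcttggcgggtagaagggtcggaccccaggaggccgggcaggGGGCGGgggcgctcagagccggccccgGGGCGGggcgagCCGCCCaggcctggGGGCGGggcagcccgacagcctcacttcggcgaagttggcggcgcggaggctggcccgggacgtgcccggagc

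Of the 34 genes, 24 had a promoter in the RefSeq table, 17 endothelial and 7 mural. AGGAAG stood in 9 of the 17 endothelial promoters and 0 of the 7 mural ones, against 35.2% of 27025 promoters of the same length. TGGGAA stood in 3 of 17 endothelial and 4 of 7 mural promoters, against 25.5% of all. GGGCGG stood in 6 of 17 and 3 of 7, against 35.9%, and TATAAA in 5 of 17 and 1 of 7, against 14.2%. The SRF CArG box, known from smooth muscle genes, was searched only in its strict form (CC, 6 letters A or T, GG). This form had 0 matches in both classes, against 1.57% of all promoters. Forms with a G or C among the 6 letters were not searched, so their absence is not shown. These 5 motifs were all that were searched. A match describes letters only, and the windows of Flt1 and Notch3 were rich in G and C (70.7% and 70.0%), whereas that of Vtn was not (51.7%).

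The 33 rows that hold the 34 genes were above 0 in all 49 libraries. All 23 endothelial rows passed the filter of a mean of at least 0.5 FPKM (fragments scaled to transcript length and sequencing depth), as did 8 of 10 mural rows. Kcnj8, a pericyte potassium channel subunit, averaged 0.403 FPKM, and Tagln, a smooth muscle actin-binding protein, averaged 0.191 FPKM, so neither was tested. Per length, the most abundant were the amino acid transporter Slc7a5 (704 FPKM), the junction scaffold Tjp1 (185 FPKM), the organic anion transporter Slco1a4 (175 FPKM) and the glucose transporter Slc2a1 (150 FPKM). Slc7a5, Tjp1 and Slc2a1 are also expressed by other cells. By contrast the receptor Kdr averaged 11.9 FPKM and Vwf, which encodes von Willebrand factor, averaged 1.17 FPKM. Reads of Slco1c1 (with Pde3a), Esam (with Msantd2 and Vsig2), Egfl7 (with Mir126a) and the pair of Ly6a and Ly6c1 were deposited on combined rows and cannot be assigned to 1 gene. Cldn5 stood on a further row with a mean of 13.4 FPKM beside the 24.4 FPKM used here.

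Libraries differed in tissue other than vessels. The choroid plexus, an epithelium of the ventricles, is marked by 7 genes whose summed level had a lowest, median and highest value of 134, 1584 and 13200 FPKM in HFD-F and of 285, 401 and 5934 FPKM in HFD-C. The same sum was 212, 3166 and 24100 FPKM in CD-F and 280, 1142 and 17163 FPKM in CD-C. It was 184, 1068 and 6090 FPKM in FD-C and 140, 382 and 5093 FPKM in FFD-C. Of its defining markers, Ttr was above 0 in all libraries and Folr1 was listed at 0 in 4. For 9 markers of meningeal fibroblasts the lowest and highest sums were 83.4 and 407 FPKM in HFD-F, 52.3 and 166 FPKM in HFD-C, 78.8 and 452 FPKM in CD-F and 75.7 and 354 FPKM in CD-C. They were 91.8 and 211 FPKM in FD-C and 73.9 and 282 FPKM in FFD-C, and none of the 9 was at 0 in any library. The liver transcript Alb exceeded 1 FPKM in 4 libraries, all of CD-C. In these bulk samples, fewer cells of a type and less RNA per cell cannot be told apart.

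The offspring code was compared first under dam code CD. In CD-F against CD-C, 3 of 23 endothelial rows rose (Kdr, Cdh5 and Eng) and 0 fell, and 2 of 8 mural rows rose (Pdgfrb and Notch3) and 0 fell. Over all 16029 rows tested 13.4% passed, 4.54% higher and 8.88% lower. The median log2 difference was 0.15 over the endothelial rows and 0.30 over the mural rows, against 0.02 over all rows.

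Kdr, the main signalling receptor for vascular endothelial growth factor, had 7.88 (lowest), 15.4 (median) and 22.1 (highest) FPKM in CD-F, against 6.20, 9.20 and 15.3 FPKM in CD-C. The groups overlapped: CD-F libraries 4 (14.4 FPKM), 5 (9.68 FPKM), 6 (12.9 FPKM) and 8 (7.88 FPKM) lay within the CD-C range. The top of that range was CD-C library 7, which lay above the other 7 of its group. The log2 difference was 0.62 (SE 0.204, adjusted p = 0.0362 with limma).

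Cdh5 encodes VE-cadherin, the adhesion protein of endothelial junctions. It had 5.04, 8.23 and 11.8 FPKM (lowest, median, highest) in CD-F, against 4.69, 5.52 and 6.86 FPKM in CD-C. The CD-F libraries spread more widely and the groups overlapped at the low end, with a log2 difference of 0.44 (SE 0.153, adjusted p = 0.0453).

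Eng, or endoglin, is an endothelial co-receptor for ligands of the TGF-beta family. It had 5.13, 7.28 and 9.28 FPKM in CD-F, against 4.56, 5.20 and 6.5 FPKM in CD-C, so that the upper CD-F libraries lay above every CD-C library and the lower ones among them. The log2 difference was 0.41 (SE 0.112, adjusted p = 0.0107).

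Of the mural genes, Pdgfrb, the receptor that recruits pericytes, had 12.5, 20.2 and 28.0 FPKM in CD-F, against 10.7, 12.9 and 14.8 FPKM in CD-C (log2 0.54, SE 0.146, adjusted p = 0.00938). Notch3, the Notch receptor of mural cells, had 5.31, 9.32 and 10.7 FPKM in CD-F, against 3.18, 6.0 and 7.05 FPKM in CD-C (log2 0.56, SE 0.148, adjusted p = 0.00814). For both, 7 of 8 CD-F libraries exceeded the CD-C mean, and the groups overlapped.

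These calls depended on how transcript GC content was treated. Across all 14767 rows with a known GC content, log2 differences of CD-F against CD-C followed it (Spearman 0.512, across rows, which are not independent). With each library's GC trend removed, Kdr (log2 0.57, adjusted p = 0.0719), Cdh5 (0.36, 0.135), Eng (0.26, 0.105), Pdgfrb (0.41, 0.0561) and Notch3 (0.41, 0.0785) no longer passed, and the lipid transporter Mfsd2a passed as lower (-0.49, adjusted p = 0.0298). Without the 4 CD-C libraries with Alb, which leaves 4 in that group, log2 differences were 0.78 for Kdr, 0.46 for Cdh5, 0.42 for Eng, 0.54 for Pdgfrb and 0.49 for Notch3. Kdr passed there (adjusted p = 0.0478), and the adjusted p of the other 4 lay between 0.0587 and 0.14.

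Under dam code HFD, 0 of 23 endothelial rows passed in HFD-F against HFD-C with limma, and 10 had an unadjusted p under 0.05, against 16.6% of all rows. Of the 8 mural rows 1 rose, Vtn, and 0 fell. Over all rows 1.67% passed in either direction, 0.362% higher and 1.31% lower. Median log2 differences were 0.17 for endothelial and 0.44 for mural rows, against 0.00 over all rows.

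Vtn, or vitronectin, is an adhesive protein that brain pericytes secrete. It had 13.6, 21.5 and 27.1 FPKM (lowest, median, highest) in HFD-F, against 10.3, 14.2 and 19.0 FPKM in HFD-C. The 2 lowest HFD-F libraries lay within the HFD-C range and the groups overlapped. The log2 difference was 0.49 (SE 0.134, adjusted p = 0.0463). The call was lost with the title prefix as a block (0.48, adjusted p = 0.0635), with the GC trend removed (0.40, adjusted p = 0.122) and with a meningeal fibroblast covariate (0.27, adjusted p = 0.249), and the adjusted p over all settings other than leaving out 1 library ran from 0.0408 to 0.249.

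Several other genes approached the threshold without passing it. Kdr had 10.2, 14.4 and 30.6 FPKM in HFD-F, against 7.41, 9.49 and 15.9 FPKM in HFD-C (log2 0.66, SE 0.199, adjusted p = 0.0697). HFD-F libraries 3 and 4, at 25.3 and 30.6 FPKM, stood far above the other 6. Flt1, a second receptor that binds vascular endothelial growth factor, had 22.7, 26.7 and 42.4 FPKM in HFD-F, against 16.2, 20.8 and 25.3 FPKM in HFD-C (log2 0.44, SE 0.131, adjusted p = 0.0652). Notch3 had 7.99, 8.83 and 12.3 FPKM in HFD-F, against 4.38, 6.21 and 8.64 FPKM in HFD-C (log2 0.50, SE 0.144, adjusted p = 0.0585). All 8 HFD-F libraries exceeded the HFD-C mean of Flt1 and of Notch3.

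Acta2, the actin of smooth muscle, had 28.9, 40.7 and 73.9 FPKM in HFD-F, against 17.5, 27.2 and 36.9 FPKM in HFD-C (log2 0.65, SE 0.273, adjusted p = 0.216). It had 20.9, 39.6 and 115 FPKM in CD-F, against 20.2, 32.0 and 55.7 FPKM in CD-C (log2 0.32, SE 0.280, adjusted p = 0.505). Both comparisons overlapped and neither passed. The tight junction protein Cldn5 had 16.5, 27.2 and 37.8 FPKM in HFD-F, against 13.7, 20.0 and 28.9 FPKM in HFD-C (log2 0.45, SE 0.169, adjusted p = 0.160). In CD-F it had 15.1, 28.1 and 35.1 FPKM, against 18.1, 19.6 and 27.4 FPKM in CD-C (log2 0.29, SE 0.174, adjusted p = 0.293).

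**Figure D1:**
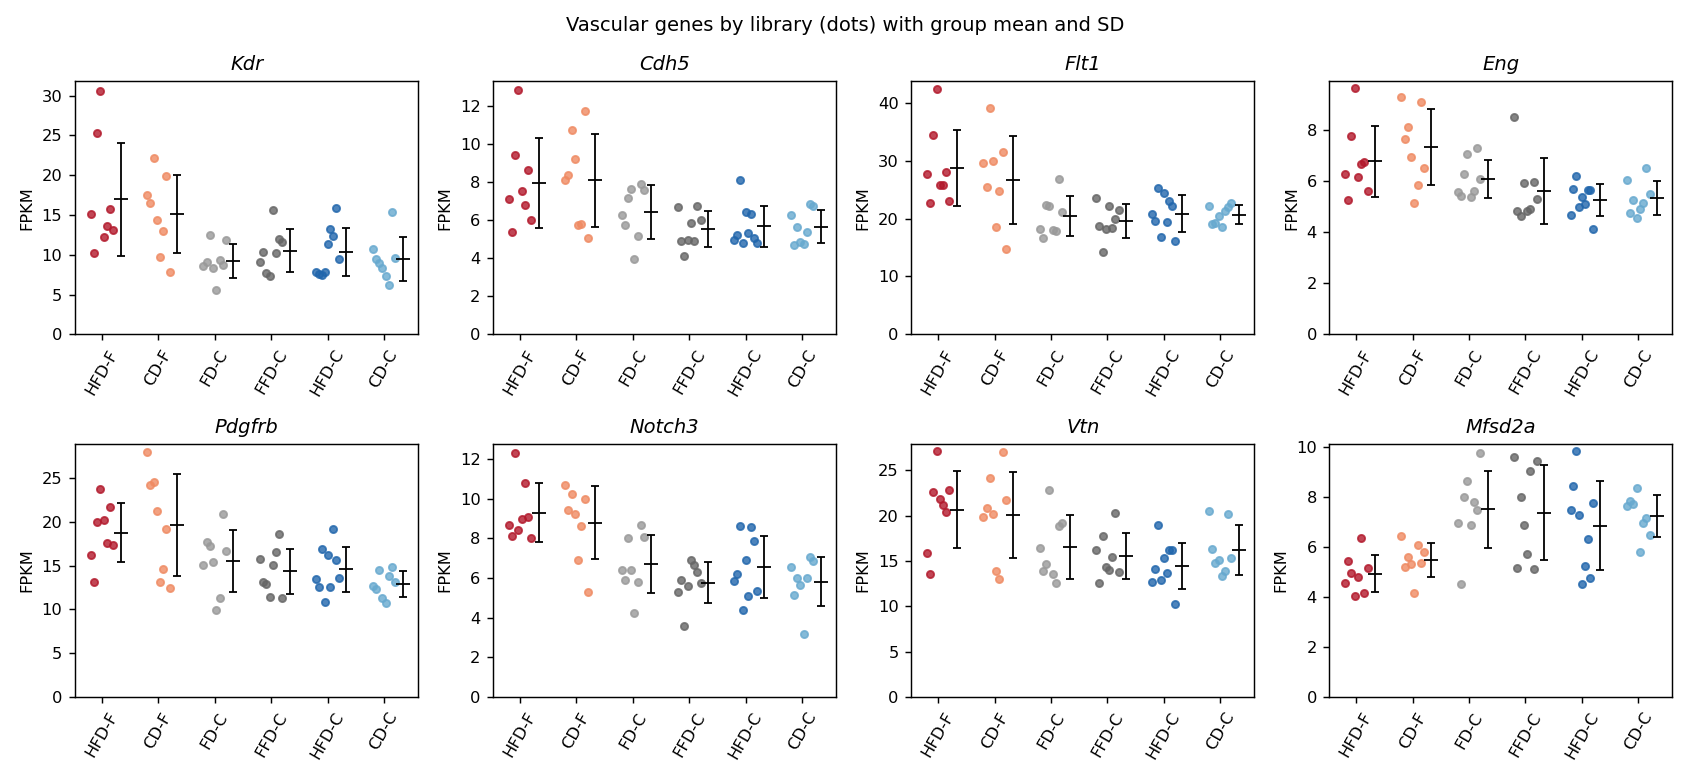
FPKM of 8 vascular genes (y axis) in each library (dots) of the 6 groups (x axis), with the group mean and SD as a bar. Levels of Kdr, Notch3 and Pdgfrb sit higher in HFD-F and CD-F than in HFD-C and CD-C with overlap, and those of Mfsd2a sit lower.

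The 2 comparisons of offspring code share no library. Of the 31 member rows tested, 26 had the same sign in both, 19 positive and 7 negative, where 76.2% of all 16029 rows had the same sign. With the GC trend removed it was again 26, with 22 positive and 4 negative, against 72.3% of 14767 rows. Differences of HFD-F against HFD-C also followed GC content across all rows (Spearman 0.460). The interaction of dam and offspring code was called in 0 member rows with limma, with 0 at an unadjusted p under 0.05 (0.00% and 2.75% of all rows). For Kdr the interaction was 0.04 on the log2 scale with an SE of 0.285. A p above the threshold does not show that the dam codes act alike.

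**Figure D2:**
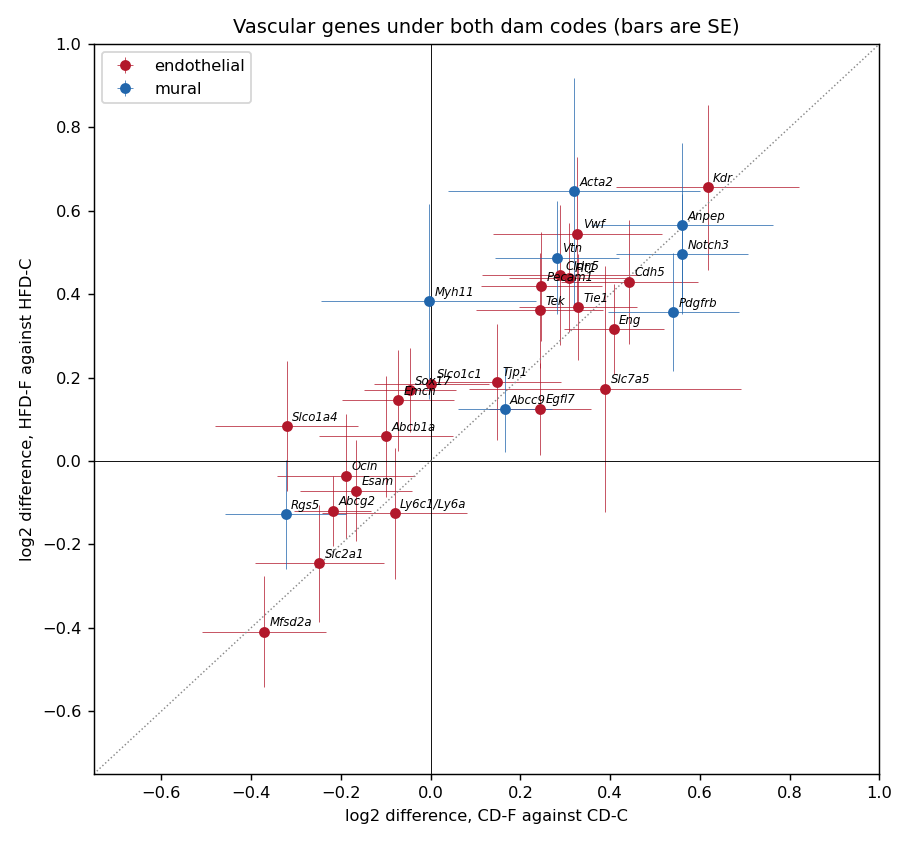
Log2 difference of HFD-F against HFD-C (y axis) by that of CD-F against CD-C (x axis) for 31 vascular rows, with SE bars and the line of equal values dotted. Of the rows, 19 lie positive and 7 lie negative on both axes.

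After both comparisons had been seen to lean the same way, code F was compared with code C over both dam codes in the same model, as the mean of HFD-F and CD-F against the mean of HFD-C and CD-C (16 against 17 libraries). This contrast uses the libraries of the comparisons above and is no independent evidence. Of the endothelial rows, 9 of 23 rose and 2 fell, and of the mural rows 4 of 8 rose and 0 fell. Over all rows 21.7% passed, 8.82% higher and 12.9% lower. Median log2 differences were 0.17 for endothelial and 0.42 for mural rows, against 0.01 over all rows.

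The 5 endothelial genes grouped here as growth factor and angiopoietin receptors (Kdr, Flt1, Eng, Tek and Tie1) all rose. Outside the 34, Flt4 (log2 0.18, adjusted p = 0.16) and Nrp1 (-0.33, adjusted p = 0.209), from the list of vascular ligands and receptors given further on, did not pass. Kdr averaged 16.1 ± 5.97 FPKM under F and 9.93 ± 2.85 FPKM under C (SD, n = 16 and 17; log2 0.64, SE 0.142, adjusted p = 0.000975), and 15 of 16 F libraries exceeded the median of C. Flt1 averaged 27.7 ± 6.98 FPKM under F and 20.8 ± 2.48 FPKM under C (log2 0.38, SE 0.0941, adjusted p = 0.00306). Eng averaged 7.04 ± 1.42 FPKM under F and 5.30 ± 0.624 FPKM under C (log2 0.36, SE 0.0778, adjusted p = 0.00063). The angiopoietin receptor Tek (0.30, adjusted p = 0.0234) and its relative Tie1 (0.35, adjusted p = 0.00456) rose as well.

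Junction genes were divided. Cdh5 averaged 8.04 ± 2.33 FPKM under F and 5.66 ± 0.969 FPKM under C (log2 0.44, adjusted p = 0.00239). The adhesion molecule Pecam1 averaged 15.8 ± 2.93 FPKM under F and 12.3 ± 2.3 FPKM under C (log2 0.33, adjusted p = 0.00822). Cldn5 also rose (0.37, adjusted p = 0.0243), whereas the tight junction protein Ocln (-0.11), the scaffold Tjp1 (0.17) and the adhesion molecule Esam (-0.12) did not pass. Of the remaining endothelial markers Vwf rose (0.44, adjusted p = 0.0138). The glycoprotein Emcn (0.04), the secreted factor Egfl7 (0.19), the combined row of Ly6c1 and Ly6a (-0.10) and the transcription factor Sox17 (0.06) did not pass.

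Among the transporters 2 fell and none rose. Mfsd2a, which carries lysophosphatidylcholine with omega-3 fatty acids into the brain and restrains transcytosis, averaged 5.21 ± 0.749 FPKM under F and 7.03 ± 1.39 FPKM under C (log2 -0.39, SE 0.096, adjusted p = 0.00255). None of the 16 F libraries reached the median of C. The efflux pump Abcg2 averaged 21.9 ± 2.74 FPKM under F and 24.6 ± 2.92 FPKM under C (-0.17, SE 0.0601, adjusted p = 0.0386), but its direction turned with the GC trend removed (0.10, adjusted p = 0.418), and its call was lost without any 1 of 15 of the 33 libraries. Slc2a1 averaged 133 ± 28.0 FPKM under F and 157 ± 28.5 FPKM under C (-0.25, SE 0.101, adjusted p = 0.0723) and passed with the GC trend removed (-0.34, adjusted p = 0.0204). The thyroid hormone and anion carriers Slco1c1 (0.09) and Slco1a4 (-0.12), the efflux pump Abcb1a (-0.02) and Slc7a5 (0.28) did not pass. With the GC trend removed Slco1c1 stood at 0.25, Slco1a4 at 0.12, Abcb1a at 0.06 and Slc7a5 at 0.16, and none passed. The difference between transporters and receptors was not tested.

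Among the mural genes, 4 of the 6 pericyte genes tested rose and the 2 contractile genes did not pass. Notch3 averaged 9.04 ± 1.64 FPKM under F and 6.20 ± 1.42 FPKM under C (log2 0.53, SE 0.103, adjusted p = 0.000217). Pdgfrb averaged 19.2 ± 4.61 FPKM under F and 13.8 ± 2.24 FPKM under C (0.45, SE 0.102, adjusted p = 0.00109). Vtn (0.38, adjusted p = 0.00306) and the peptidase Anpep, a pericyte surface marker also known as CD13 (0.56, adjusted p = 0.00307), rose too. Rgs5, a regulator of G protein signalling and a common pericyte marker, was at -0.22 (adjusted p = 0.0785), and Abcc9, the sulfonylurea receptor subunit that pairs with Kcnj8, at 0.15 (adjusted p = 0.156). Acta2 was at 0.48 (SE 0.196, adjusted p = 0.07) and the smooth muscle myosin Myh11 at 0.19 (adjusted p = 0.451).

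With the GC trend removed, 11.4% of 14767 rows passed, 4.37% higher and 7.08% lower, and 6 endothelial rows remained higher (Kdr, Cdh5, Pecam1, Flt1, Tek and Eng), while Mfsd2a and Slc2a1 were lower. Tie1 (adjusted p = 0.0722), Vwf (0.0914) and Cldn5 (0.159) lost their calls, and Notch3, Pdgfrb, Vtn and Anpep kept theirs. Choroid plexus markers stood with 0 of 7 called and 7 of 7 positive in this contrast, and fibroblast markers with 1 of 9 called and 8 of 9 positive. Of 6 microglial markers 1 was called, Csf1r (log2 0.37, adjusted p = 0.000127; 0.27 with the GC trend removed), of 7 astrocyte markers Aldh1l1 (0.27, adjusted p = 0.00489) and of 7 neuronal markers Slc17a7 (0.25, adjusted p = 0.029), all higher under F. The summed microglial markers averaged 1411 ± 222 FPKM in HFD-F and 1379 ± 198 FPKM in CD-F, against 1124 ± 144 FPKM in HFD-C and 1179 ± 234 FPKM in CD-C. Most of this sum was Csf1r, which averaged 1024 ± 125 FPKM under F and 791 ± 99.0 FPKM under C. Of the 6 microglial markers 4 were positive, whereas Cx3cr1 (-0.27) and P2ry12 (-0.10) were negative. The part of microglia, astrocytes and neurons in the vascular differences was not tested. With the choroid plexus level as a covariate the counts were 9 higher and 2 lower endothelial rows and 4 mural rows. The same counts were found with the title prefix as a random block. Without the 4 Alb libraries 7 endothelial rows were higher and 2 lower, and 4 mural rows were higher (2789 of 16029 rows called). Cldn5 (adjusted p = 0.122 with limma) and Tek (0.0717) lost their calls there. With the fibroblast level as a covariate 6 endothelial rows were higher and 2 lower, Cldn5, Tek and Vwf losing their calls, and the log2 differences of Kdr and Anpep were 0.47 and 0.33. The median log2 difference was then 0.09 over endothelial and 0.23 over mural rows, and Acta2 stood at 0.20 and Myh11 at -0.05.

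**Figure D3:**
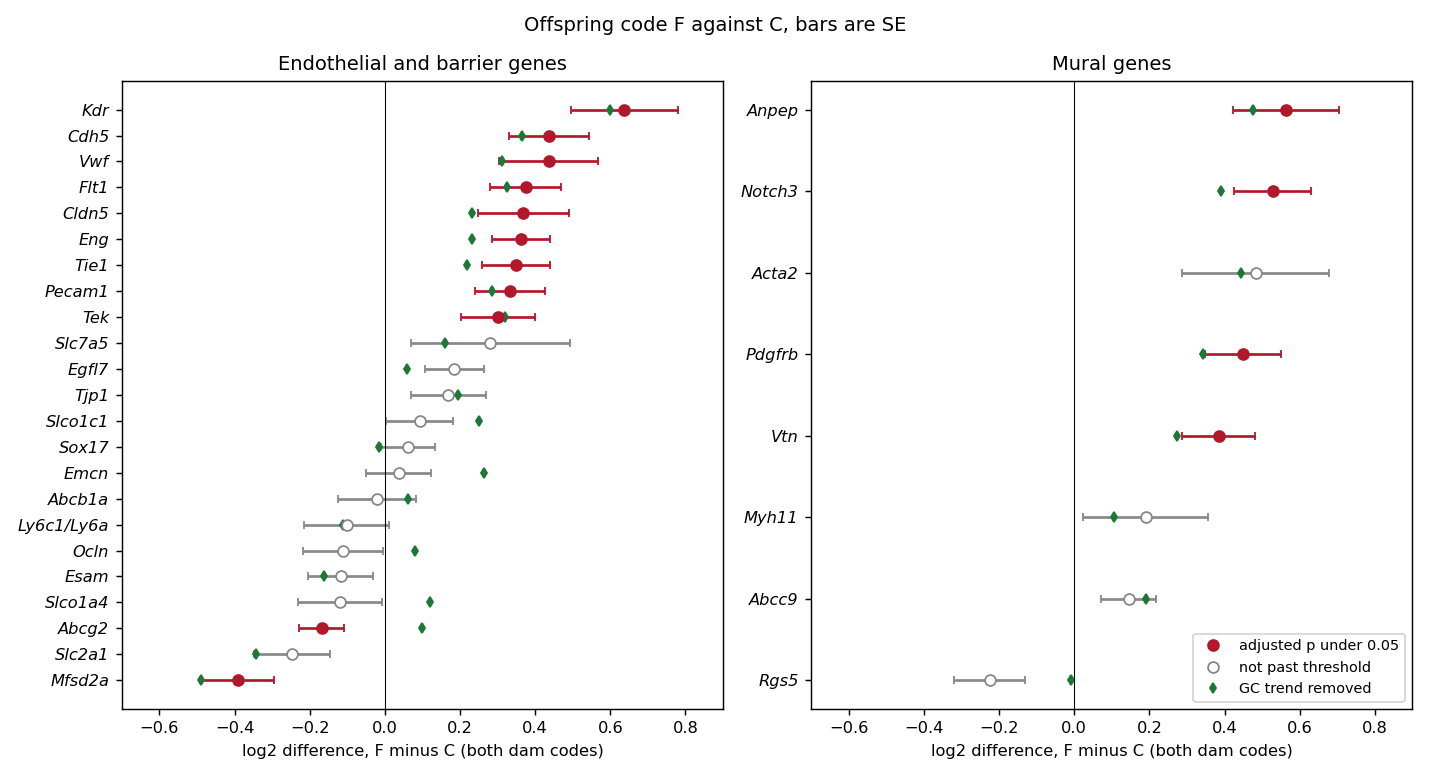
Log2 difference of code F minus code C over both dam codes (x axis, bars SE) for 23 endothelial and 8 mural rows (y axis), filled red where adjusted p was under 0.05, with the value after removal of the GC trend as a green diamond. The 5 endothelial genes grouped as growth factor and angiopoietin receptors lie to the right of 0, as do 5 of the 6 pericyte genes. Mfsd2a and Rgs5 lie to the left under both settings (Rgs5 close to 0 with the GC trend removed), while Abcg2 changes side.

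Within title prefixes the difference was less even. Of the prefixes, 3 held libraries of both HFD-F (8 in all) and HFD-C (1 each), and no test was made. In each of the 3, the HFD-F libraries carried the other XX or XY mark than the HFD-C library. Offspring code and mark therefore cannot be told apart within prefixes, and no correction for the mark was made there. In prefix HFD3.2, 4 HFD-F libraries were set against the same HFD-C library. Of the 8 HFD-F libraries, 7 lay above the HFD-C library of their prefix for Cdh5, Flt1, Pecam1, Pdgfrb, Notch3 and Vtn, and 6 for Eng. Of the other endothelial and mural genes that rose over both dam codes, 7 did for Vwf, 6 for Anpep, 5 for Tie1, 4 for Cldn5 and 3 for Tek and for Kdr. Prefix means of Kdr ran from -0.21 to 1.14 on the log2 scale. For Mfsd2a, lower under F over all libraries, 5 of 8 HFD-F libraries lay above, and the mean over prefixes was -0.09.

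Comparisons of dam code called none of the member rows. In HFD-C against CD-C 0 of 31 passed with limma and 0 had an unadjusted p under 0.05 (0.00% and 2.36% of all rows). In FD-C against CD-C 0 passed (0.200% of all rows), and Abcg2 alone had an unadjusted p under 0.05 (log2 -0.18; 9.54% of all rows). In FFD-C against CD-C 0 passed (0.00624%), and Ocln alone was under an unadjusted 0.05 (-0.39; 3.29%). In FFD-C against HFD-C 0 passed (0.00%), and Cldn5 (0.41) and Egfl7 (0.28) were under it (5.96%). In HFD-F against CD-F 0 passed (0.00%), and Slco1a4 (0.42) was under it (8.27%). For Kdr, HFD-C against CD-C was 10.3 ± 3.04 against 9.49 ± 2.75 FPKM (log2 0.11, SE 0.199), FD-C against CD-C was 9.24 ± 2.16 against 9.49 ± 2.75 FPKM (-0.03, SE 0.204), and FFD-C against CD-C was 10.5 ± 2.67 against 9.49 ± 2.75 FPKM (0.15, SE 0.204). XX against XY called 0 member rows (0.112% of all rows), with Vwf (0.25) and Rgs5 (0.19) at an unadjusted p under 0.05 (8.25%). Over all 6 groups together, 12% of rows differed, among them 5 of 23 endothelial rows (Kdr, Cdh5, Flt1, Mfsd2a and Eng) and 4 of 8 mural rows (Pdgfrb, Notch3, Vtn and Anpep).

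**Figure D4:**
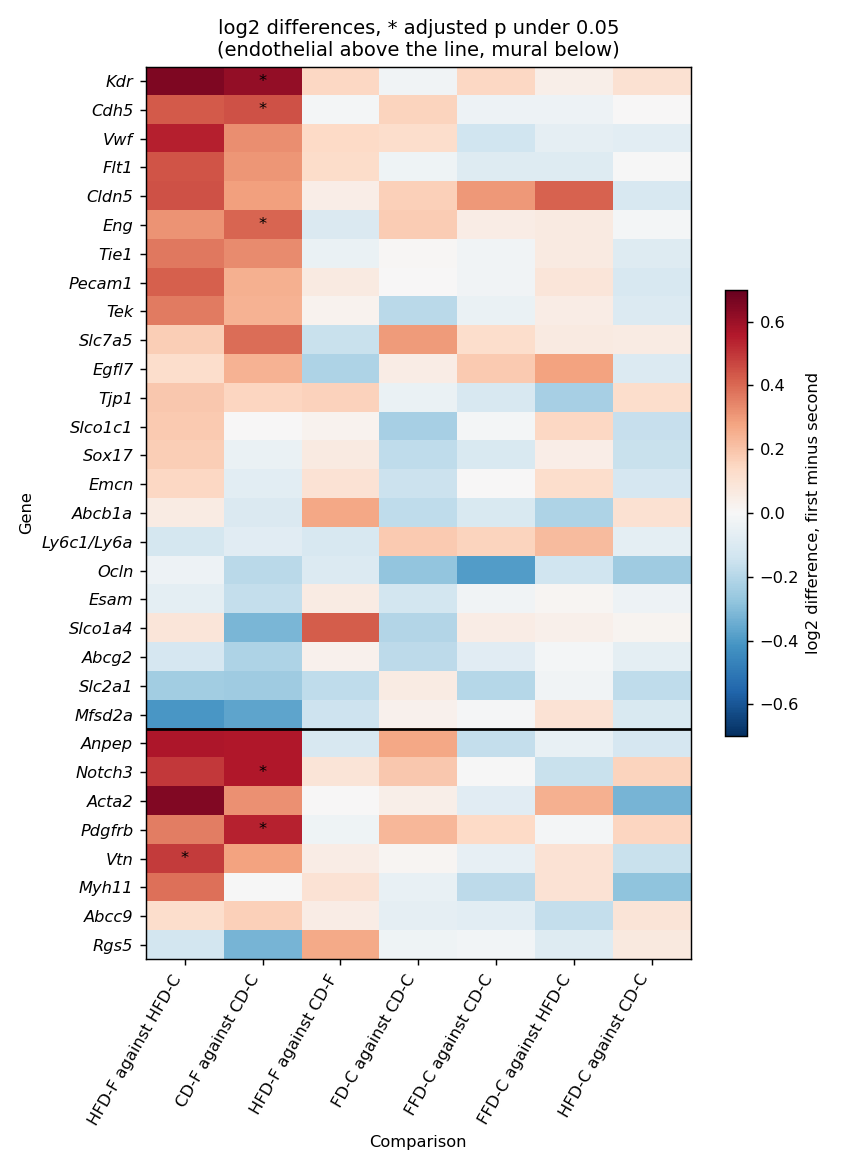
Log2 differences (colour, first group minus second) of 31 vascular rows (y axis) in 7 comparisons (x axis), with an asterisk where adjusted p was under 0.05. The 6 asterisks stand in the 2 columns that compare offspring code F with C.

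Other genes of the vascular pathways were taken from lists. Their counts in the contrast over both dam codes stand beside 21.7% of all rows called, 8.82% higher and 12.9% lower, and nothing particular to a list is read from them. In that contrast, 2 of 20 vascular ligand and receptor genes rose, Tgfbr2 (log2 0.38) and Acvrl1 (0.25), and 1 fell, Bmpr2 (-0.45). All 3 are receptors of the TGF-beta family. Of 13 genes of Wnt and Norrin signalling, the pathway that maintains the barrier, 1 rose, the Wnt target Apcdd1 (0.27). Of 11 endothelial transcription factors 3 rose, Sox7 (0.30), Foxq1 (0.23) and Sox18 (0.23), and 1 fell, the flow-responsive factor Klf2 (-0.28).

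Among other transport genes in that contrast, the phospholipid transfer protein Pltp (0.44) and the organic anion transporter Slc22a8 (0.57) rose. The transferrin receptor Tfrc fell (-0.27) and stood at -0.01 with the GC trend removed. Of 14 other endothelial markers 3 rose, the phosphatase Ptprb (0.49), Ecscr (0.35) and Bsg (0.24). Of 10 basement membrane genes 3 rose: the laminin chain Lama4 (0.41, adjusted p = 0.000154), the proteoglycan perlecan, Hspg2 (0.61), and Lamb2 (0.27). Of 17 other mural genes 3 rose, the Notch target Heyl (0.58), the pericyte proteoglycan Cspg4 (0.25) and Ndufa4l2 (0.28). With the GC trend removed, Acvrl1, Bmpr2, Sox7, Foxq1, Sox18, Tfrc, Ecscr, Bsg, Lamb2, Cspg4 and Ndufa4l2 no longer passed. Slc22a8 and Pltp are also known from choroid plexus or meninges, and Bsg from many cells.

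In CD-F against CD-C alone, Bmpr2 (-0.55), Klf2 (-0.53) and its relative Klf4 (-0.44) fell, and Heyl (0.76), Cspg4 (0.37) and the adhesion molecule Mcam (0.60) rose. Over all rows 4.54% passed higher and 8.88% lower there. Over both dam codes Klf4 and Mcam did not pass (adjusted p = 0.155 and 0.058 with limma). In HFD-F against HFD-C alone, Lama4 rose to 1.22 ± 0.248 FPKM in HFD-F, against 0.696 ± 0.171 FPKM in HFD-C (log2 0.52, SE 0.108, adjusted p = 0.0105), and Ndufa4l2 rose (0.44, adjusted p = 0.0463). Over all rows 0.362% passed higher in that comparison. Values of these genes in the 2 comparisons with the GC trend removed are not given here.

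Genes that varied together between libraries were described after group and mark had been removed (Pearson's r over 49 libraries, which share depth and dissection, and no test). The median r was 0.26 among endothelial rows, 0.45 among mural rows and 0.30 between the classes. Cdh5 and Tie1 were closest (0.88), and Flt1 (0.86 with Cdh5), Eng (0.81 with Tie1) and Tek (0.81 with Tie1) lay with them. The contractile genes Acta2 and Myh11 had 0.81. Slc2a1 and Mfsd2a had 0.74 with each other, while Mfsd2a had a median of 0.02 with the endothelial rows. Slc7a5 had a median of 0.04 with the endothelial rows and its highest r was 0.30, with Abcc9. Egfl7 had a median of -0.02, with values on both sides of 0, among them 0.56 with Cldn5 and -0.67 with Tjp1.

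**Figure D5:**
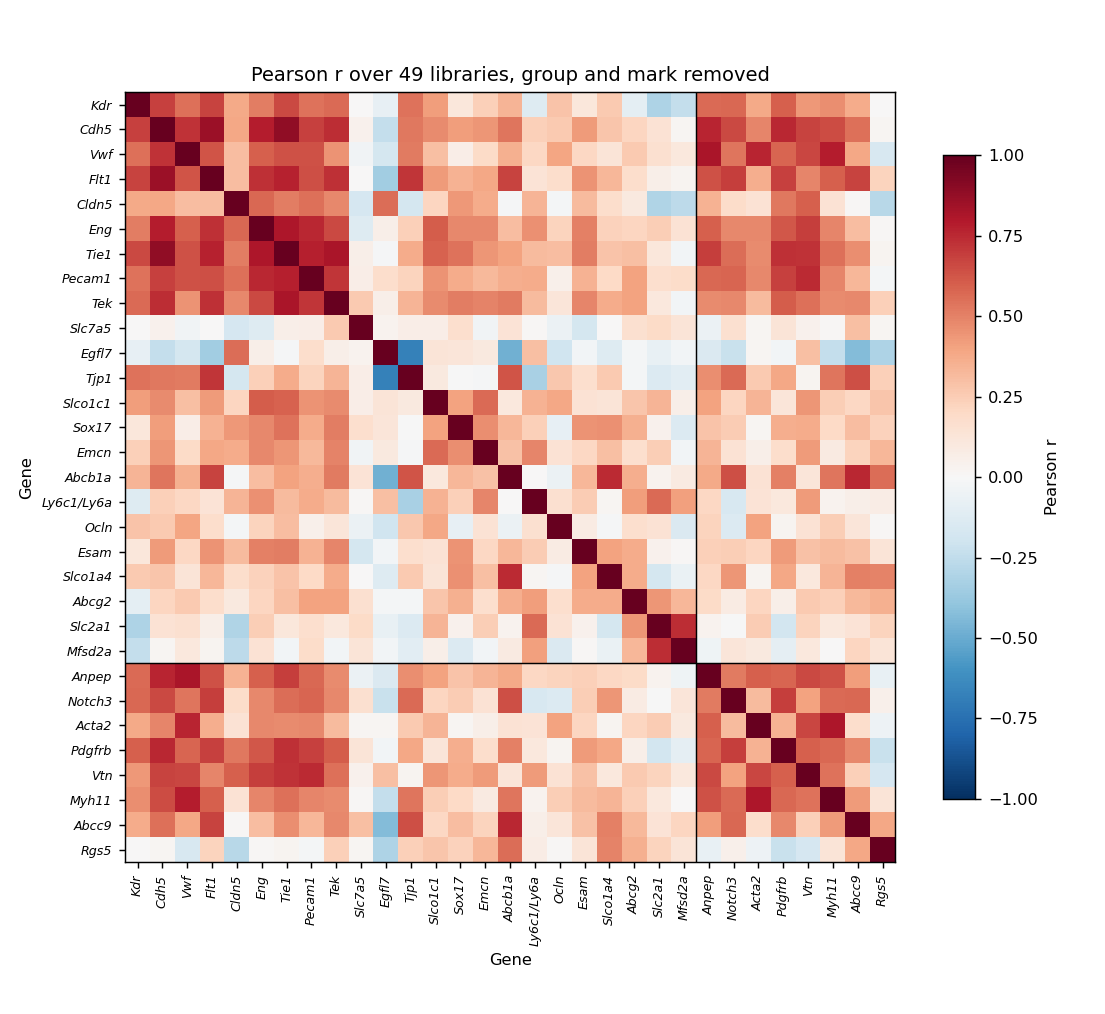
Pearson's r (colour) between 31 vascular rows (both axes) over 49 libraries after removal of group and mark, with black lines between endothelial and mural rows. A block of endothelial receptors and junction genes from Kdr to Tek reaches into the mural rows, and Slc2a1 and Mfsd2a pair apart from it.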

How the data were processed

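RNA of 49 hippocampi was measured by sequencing, after phenol-chloroform extraction and a BGI-500 library protocol, per the labels. The authors deposited 1 table of FPKM. Build GRCm38.p6 and the tools StringTie 1.3.4d, HISAT2 and Trimmomatic 0.38 are listed, without roles, in the submitters' processing notes. No source used here gives read totals, so absolute depth and counting error are unknown. Column sums ran from 1220340 to 1340551 FPKM, and spacing of low values over 368 rows gave relative depths of 0.91 to 1.05. The strand setting is likewise not given in the sources, so overlapping or antisense genes are uncertain.

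Differences were tested with limma 3.58.1 in R 4.3.3 (lmFit, eBayes with trend, two-sided) on log2(FPKM + 0.5). All 49 libraries and 16029 rows (mean FPKM 0.5 or more) entered 1 model of group and XX or XY mark. P-values were adjusted over all rows by Benjamini-Hochberg at 0.05, and the scale understates changes of low genes. The code was checked on simulated data. Alternatives were pseudocounts of 0.1 and 1, other filters, median centring, quantile normalization, no mark, only the groups compared, a random block for title prefix, summed rows, removal of each library's trend on transcript GC content (from the GENCODE annotation, 14767 rows), leaving out the Alb libraries and leaving out each library.

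The contrast of code F against C over both dam codes, the values within prefixes and the choroid plexus and fibroblast covariates (mean log2 marker level) were chosen after seeing the data. Members and lists were chosen with earlier results of these data known. Values by library are given for members called in a pairwise comparison, at most 4 with the smallest p per class and comparison, and for Kdr, Cldn5, Pdgfrb and Acta2. Flt1 and Notch3 in HFD-F, and members named with values over both dam codes, were chosen after their values were seen. Of each list up to 3 called genes are named per comparison, with 1 more where 4 were called. Flt4, Nrp1, Cx3cr1 and P2ry12 are named though not called, after their values were seen. Some called genes of the junction and transport lists are not reported here.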

Additional observations from a re-analysis of the deposited data

Results flagged for a closer look

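In 25 of 198 sets of values (a row in a group) the highest or lowest library stood apart from the others by Dixon's criterion. Chance alone meets it in about 1 in 20 sets of normally distributed values. The criterion was applied to FPKM without a log scale, which need not be so distributed, so the rate by chance is unknown here. Several fell in the same libraries, and the sets are not independent.

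Transporters gave many. Slc7a5 was low in HFD-F library 3 (272 FPKM), CD-F library 1 (354 FPKM), FD-C library 4 (255 FPKM) and FFD-C library 4 (210 FPKM). Similar values that the criterion did not flag stood in CD-C libraries 5 (245 FPKM) and 8 (309 FPKM) and in HFD-C libraries 2 (292 FPKM) and 6 (241 FPKM). Low libraries of Slc7a5 thus occurred in all 6 groups. The row of Slco1c1 and Pde3a was high in HFD-F library 4 (192 FPKM), CD-F library 7 (227 FPKM), FFD-C library 1 (168 FPKM) and CD-C library 7 (193 FPKM). Slc2a1 was low in CD-C library 5 (135 FPKM), and Abcb1a was low in HFD-F library 8 (10.8 FPKM).

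Among junction, receptor and marker genes, Cdh5 (8.12 FPKM) and the row of Ly6c1 and Ly6a (85.4 FPKM) were high in HFD-C library 3. Tek was high in FD-C library 7 (16.3 FPKM), Ocln in CD-F library 7 (21.8 FPKM), Eng in FFD-C library 1 (8.51 FPKM) and Vwf in FD-C library 4 (2.06 FPKM). Tjp1 was low in CD-F library 8 (89.0 FPKM). Egfl7 was high in HFD-F library 8 (12.1 FPKM), CD-F library 8 (13.7 FPKM) and HFD-C library 8 (9.84 FPKM).

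Of the mural genes, Acta2 (86.4 FPKM) and Tagln (0.542 FPKM) were high in FD-C library 4, Myh11 in HFD-C library 3 (15.6 FPKM) and Anpep in CD-F library 7 (6.55 FPKM). Kcnj8 was low in CD-C library 2 (0.279 FPKM).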

How the results depend on the processing

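In CD-F against CD-C the 3 endothelial calls became 1 with no filter, 1 with the GC trend removed (Mfsd2a, lower) and 1 without the Alb libraries, and the 2 mural calls became 0 under each of the last 2 settings. In HFD-F against HFD-C the 0 endothelial calls became 1 with median centring and 1 with quantile normalization. The 1 mural call there became 2 with either scaling and 0 with no filter, with only the groups compared, with the prefix block, with the GC trend removed, without the Alb libraries, and with the choroid plexus or fibroblast covariate. The 5 endothelial rows that differed among the 6 groups became 3 with the GC trend removed and 3 with the fibroblast covariate, and the 4 mural rows became 1 with the GC trend removed, 2 without the Alb libraries and 2 with the fibroblast covariate. Over both dam codes the 9 higher endothelial rows became 7 without the Alb libraries, and Abcg2 turned to 0.10 with the GC trend removed. The cause was not tested. With no filter more rows were tested, and fewer libraries were used without the Alb libraries or with only the groups compared.

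Leaving out 1 library gave 1 to 4 endothelial and 2 to 4 mural calls in CD-F against CD-C, 0 to 4 and 0 to 3 in HFD-F against HFD-C, 4 to 9 and 2 to 4 among the 6 groups, and 10 to 13 and 4 to 6 over both dam codes. In CD-F against CD-C, Eng, Pdgfrb and Notch3 passed in all 16 repeats. Kdr lost its call without CD-C 2, 3, 4, 5 or 6 or CD-F 1, 2, 3, 4 or 7 (adjusted p up to 0.0858), and Cdh5 without any of these or CD-C 1 (up to 0.12). Vtn in HFD-F lost it without HFD-C 1, 2, 4, 6 or 9 or HFD-F 3 to 8 (up to 0.133). Without HFD-F 2, HFD-F against HFD-C had 4 endothelial and 3 mural calls. Without HFD-C 5 or 8 it had 1 endothelial call, and without HFD-C 3, 7 or 8 it had 2 mural calls. Without CD-F 6 the CD-F comparison had 4 mural calls. Among the 6 groups, 9 endothelial rows differed without CD-F 5, CD-F 8 or HFD-F 2, and 2 mural rows without CD-F 1 or 2. Over both dam codes Abcg2 lost its call without CD-C 1, 3, 4 or 8, CD-F 1, 4 or 5, HFD-C 1, 2, 3 or 6, or HFD-F 2, 3, 4 or 8 (up to 0.0745), and the other 14 called members passed in all 33 repeats. Depth is unknown, so low genes such as Kcnj8 and Tagln carry an unknown counting error. Replicate numbers were given in accession order and pair no libraries, so they entered no fit. Title prefixes, 3 of which HFD-F and HFD-C share, entered as the prefix block above.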
